A study of Caenorhabditis elegans with 16 samples.

Results

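The genes described here encode the subunits of the proteasome, and they were measured in mixed-stage embryos of Caenorhabditis elegans. Members were the entries of the deposited count table whose symbol begins with pas-, pbs-, rpt- or rpn-. The rule took 32 of 46726 genes. They were 7 pas genes for the alpha subunits and 7 pbs genes for the beta subunits of the 20S core, 6 rpt genes for the ATPases and 12 rpn genes for the non-ATPase subunits of the 19S regulatory particle. All 32 passed the filter on low counts. The gene for the ubiquitin receptor RPN-13 is listed in the table under its sequence name C56G2.7 and was therefore no member; its values are given beside those of the members.

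The proteasome is the protease that degrades ubiquitin-tagged proteins in the cytoplasm and the nucleus. Its barrel-shaped core is built of stacked rings, with alpha rings at the ends that gate the entry and beta rings inside that carry the active sites, and a regulatory particle on top binds, unfolds and threads the substrate. In C. elegans embryos it removes maternal proteins and cell cycle regulators on schedule, and the transcription factor SKN-1A activates its subunit genes together when proteasome function is impaired.

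RNA came from 4 genotypes with 4 libraries each. These were the double mutant edc-3(ok1427); edc-4(qe49) (strain FD146), edc-4(qe49) (strain FD135), edc-3(ok1427) (strain RB1311) and WT (strain N2), grown in parallel on plates at 16 °C without any treatment. Both EDC proteins promote the decapping of mRNA, and the comparisons of the mutants with WT ask which transcripts change when either or both are altered. Each genotype is 1 strain, the embryos were a mixture of ages, and the labels number the independent biological replicates 2 to 5.

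Libraries held 34.1 to 52.9 M counts, and 16880 genes were tested with edgeR's quasi-likelihood test and Benjamini-Hochberg adjustment over all of them, with 0.05 as the threshold. Levels are CPM, counts scaled to a common library total with TMM factors, or, where genes are compared with each other, TPM, which also divide by exon length. The edc-4 transcript averaged 26.1 ± 4.37 CPM in the double mutant and 31.9 ± 2.62 in edc-4, against 176 ± 22.8 in edc-3 and 168 ± 20.5 in WT (SD, n = 4 each). The edc-3 gene as a whole had 72.8 ± 7.49 CPM in the double mutant, 92.5 ± 16.3 in edc-4, 62.4 ± 5.55 in edc-3 and 85.4 ± 11.5 in WT (SD, n = 4 each). The lesion of ok1427 is not given in the sources used here, and a count over the whole gene does not check it. Markers of early zygotic embryos and of muscle were all detected in every library, while the 46 sperm markers summed to at most 3.35 CPM. The libraries numbered 4 stood apart. Early zygotic markers summed to 2200 CPM in replicate 4 of the double mutant, 2259 in that of edc-4 and 1798 in that of edc-3, each the highest of its genotype, but to 1083 CPM in replicate 4 of WT, the lowest of its genotype. Each comparison below is therefore also given without the libraries numbered 4, and with an embryo-age covariate (the mean log2 CPM of 30 early zygotic markers minus that of 31 muscle markers).

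Apart from rpn-6.2, the subunit genes were abundant and close to each other per transcript length. The 31 genes had mean levels of 37.2 TPM (pas-1) to 103.7 TPM (pbs-1) over the 16 libraries, a 2.79-fold range with a median of 59.9 TPM. They lay between the 80.3rd and 95.5th percentile of 14513 protein-coding genes tested, whose median was 9.98 TPM. The 4 roles overlapped in level. Alpha subunit genes had 37.2 TPM (pas-1) to 89.95 TPM (pas-5), and beta subunit genes 49.2 TPM (pbs-3) to 103.7 TPM (pbs-1, the caspase-like subunit in the nomenclature shared with yeast). The ATPase genes were the most even, with 51.3 TPM (rpt-5) to 71.8 TPM (rpt-2), a 1.40-fold range. Non-ATPase genes without rpn-6.2 had 44.1 TPM for rpn-1, which encodes a large scaffold that docks ubiquitin shuttle factors, to 76.7 TPM for rpn-6.1, which encodes the lid subunit that clamps the regulatory particle to the core. Ranges over single libraries were wider than the gaps between most neighbours in this order. For example, pas-5 ranged over 60.4 to 115.5 TPM and pbs-1 over 73.5 to 118 TPM.

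**Figure D1:**
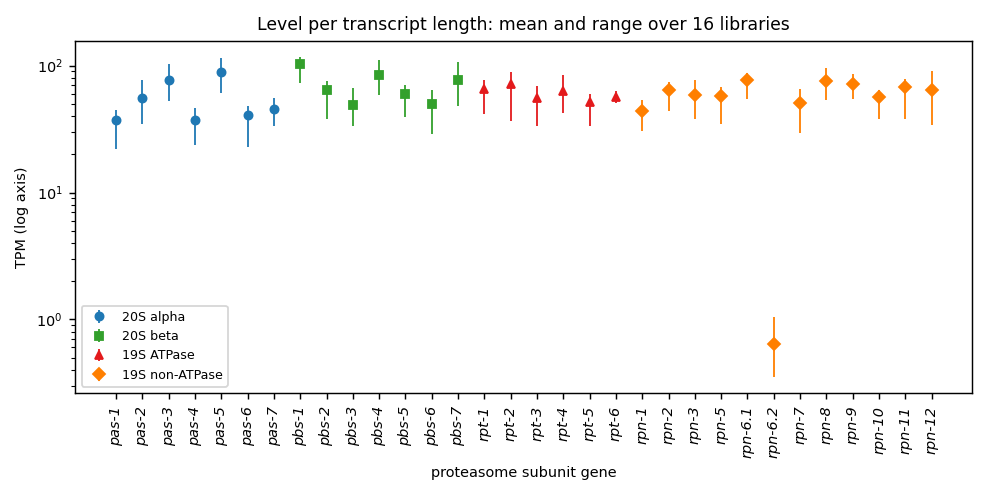
Level of each of the 32 subunit genes per transcript length (TPM, log axis), by role, with the mean over 16 libraries as a symbol and the lowest to highest library as a line. The 31 genes other than rpn-6.2 have means of 37.2 to 103.7 TPM, and rpn-6.2 lies at 0.638 TPM.

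The exception was the paralogue pair of the lid subunit RPN-6. On chromosome III, rpn-6.1 (WBcel235 coordinates 6959110 to 6962001) averaged 76.7 TPM and rpn-6.2 (coordinates 8999817 to 9001999) averaged 0.638 TPM. In single libraries rpn-6.1 was 80.2 to 236 times rpn-6.2 in TPM, with a median of 121. The rpn-6.2 level rests on 23 to 67 counts per library, and how the counting divided reads between these similar genes is not given in the sources used here, so its level is uncertain.

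The members moved together from library to library. Over the 16 libraries the 465 pairs of the 31 genes other than rpn-6.2 had a median Pearson r of log2 CPM of 0.896, with a range of 0.489 to 0.985, given as a description since the points share their libraries. The lowest medians among these 31 were those of rpt-6 (0.63), an ATPase, and rpn-1 (0.681). The gene rpn-6.2 did not share the pattern, with a median r of -0.066 with the others. In all, WT replicate 4 held the lowest level of 31 of the 32 members. The highest level was in edc-4 replicate 4 for 22 members, in double mutant replicate 4 for 7, in edc-3 replicate 3 for 2 and in WT replicate 2 for 1. The libraries that held the extremes of all other genes were not counted, so these numbers describe the members without setting them apart.

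**Figure D2:**
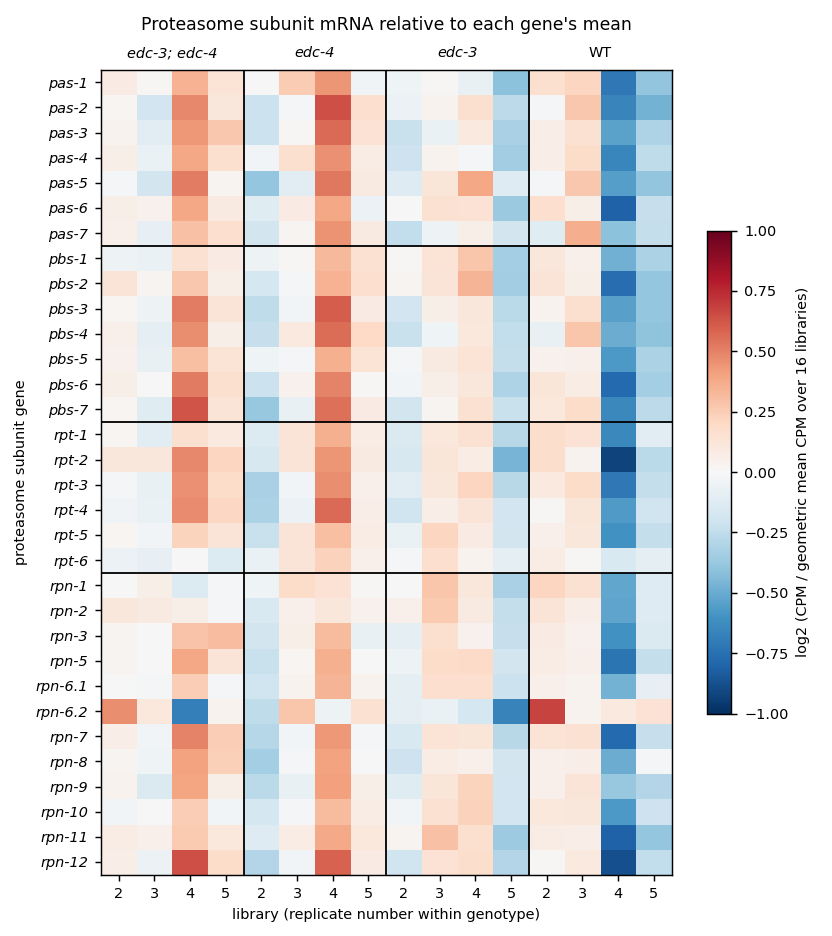
Level of each subunit gene in each of the 16 libraries as log2 of CPM over the gene's geometric mean (colour, red higher and blue lower), with genes grouped by role from top to bottom and libraries grouped by genotype. The columns numbered 4 are the reddest in the double mutant and edc-4 and the bluest in WT, while rpn-6.2 follows no such column.

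Summed over the 32 genes, proteasome transcripts took 2678, 2566, 3266 and 2822 CPM in the double mutant, for replicates 2 to 5. The sums were 2291, 2688, 3418 and 2727 CPM in edc-4, 2464, 2876, 2886 and 2191 CPM in edc-3, and 2779, 2833, 1739 and 2237 CPM in WT. The genotypes overlapped: WT replicates 2 and 3 lay within the range of the mutants, and WT replicate 4 lay below every mutant library. Within a genotype, replicate 4 differed from the mean of the other libraries by a median log2 of 0.33 over the members in the double mutant, 0.42 in edc-4 and 0.22 in edc-3, but by -0.58 in WT. The same medians over all genes tested were -0.03, -0.05, -0.01 and 0.05, in the same order. Of the 32 members, 28 were above all other libraries of their genotype in double mutant replicate 4, 30 in edc-4 replicate 4 and 19 in edc-3 replicate 4, and 31 were below all others in WT replicate 4. The share of all genes that did so was not counted, so these counts do not set the members apart from other genes. Medians of the core and the regulatory particle shifted in the same directions in replicate 4, but not equally in the mutants. The ratio of summed TPM of the 20S genes to that of the 19S genes lay between 0.744 (WT replicate 5) and 0.89 (edc-4 replicate 4). In each mutant it was highest in replicate 4. It was 0.879 there in the double mutant (0.793 to 0.828 in its other libraries), 0.89 in edc-4 (0.812 to 0.865) and 0.848 in edc-3 (0.767 to 0.82). In WT replicate 4 it was 0.827, within the 0.744 to 0.873 of the other WT libraries. A few members hardly took part in the mutants. In double mutant replicate 4, rpn-1 differed from the mean of the other libraries by log2 -0.15 and rpt-6 by 0.09. The gene of the other large scaffold, rpn-2, differed by -0.00. By comparison, pbs-7 (a beta subunit) differed by 0.62 and rpn-12 (a lid subunit) by 0.58. Merged exons are 3171 bases for rpn-1, 3166 for rpn-2 and 1406 for rpt-6, but 878 for pbs-7 and 855 for rpn-12. Against this order, pbs-1 (822 bases) differed by 0.17 and rpn-7 (1907 bases) by 0.40. The part of transcript length in these differences and in the ratio of 20S to 19S genes was not tested.

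Against WT, no subunit gene passed the threshold in any of the mutants, although nearly all fitted fold changes were positive. In the double mutant 0 of 32 genes were called, where 35 of all tested genes (0.207%) were called. The median log2 fold change of the members was 0.28 and 30 of 32 were above 0, against a median of -0.01 and 48.8% above 0 over all genes tested. Only 1 member, rpt-2, had an unadjusted p under 0.05, as did 11.4% of all genes. In edc-4, 0 of 32 were called (0.142% of all genes), the median log2 was 0.23 with 31 of 32 above 0, against 0.01 and 50.8% over all genes. No member had an unadjusted p under 0.05 there, as 4.98% of all genes did. In edc-3, 0 of 32 were called (0.142% of all genes), the median log2 was 0.11 with 30 of 32 above 0, against -0.01 and 48.9% over all genes. No member had an unadjusted p under 0.05 there, as 2.65% of all genes did. DESeq2 also called 0 members in each of these comparisons (0.665% of all genes in the double mutant, 0.249% in edc-4 and 0.231% in edc-3), with rpt-2 in the double mutant as the only member under an unadjusted p of 0.05.

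The fold changes of the 3 comparisons share the WT libraries, and they depended on the libraries numbered 4. Without those 4 libraries the median log2 of the members was 0.04 in the double mutant with 24 of 32 above 0, -0.02 in edc-4 with 12 of 32 above 0, and -0.065 in edc-3 with 7 of 32 above 0. The fitted fold change turned negative for 6 members in the double mutant, 19 in edc-4 and 23 in edc-3. Leaving out WT replicate 4 alone gave medians of 0.14, 0.09 and -0.02 in the double mutant, edc-4 and edc-3. With the embryo-age covariate, the medians were 0.02 in the double mutant, 0.08 in edc-4 and 0.03 in edc-3. In bulk RNA, fewer cells of a type and less RNA per cell cannot be told apart. No member was called in any of 143 combinations of a comparison and an alternative setting.

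**Figure D3:**
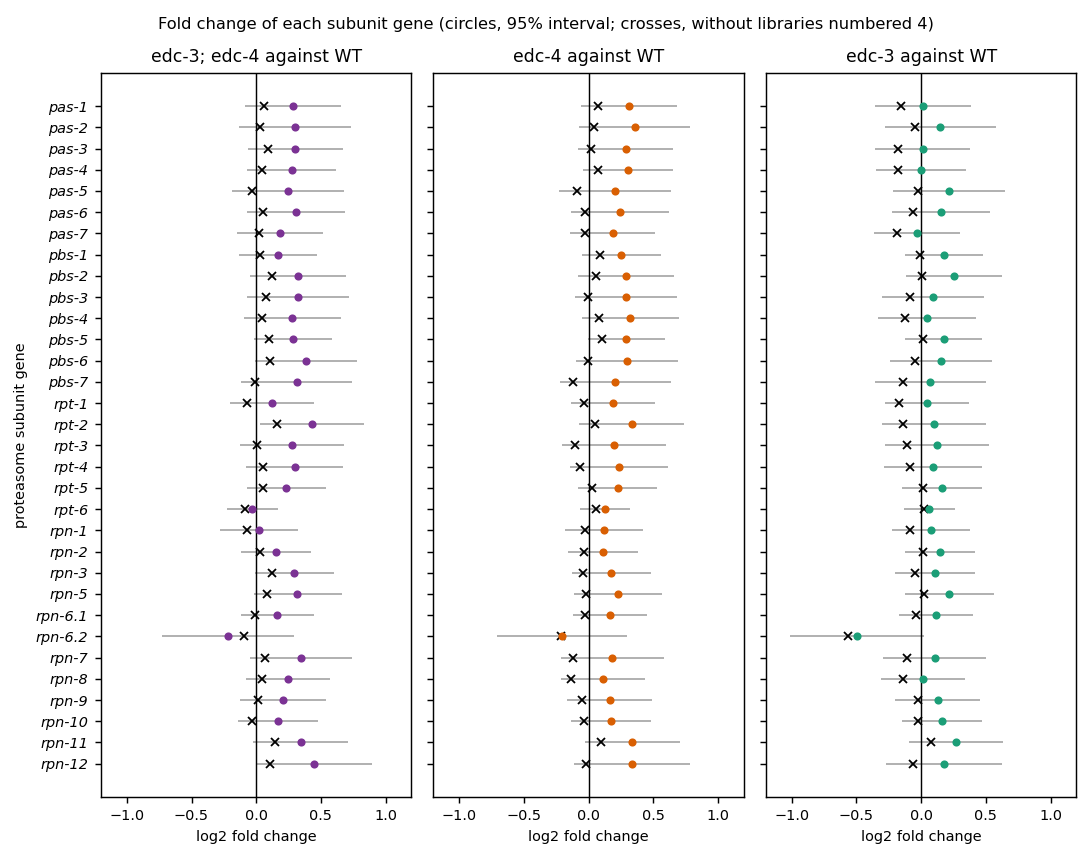
Log2 fold change of each of the 32 subunit genes in the double mutant, edc-4 and edc-3 against WT with all 16 libraries (circles, with 95% intervals as lines) and without the libraries numbered 4 (crosses). Most circles lie above 0, and the crosses scatter about 0, with medians of 0.04, -0.02 and -0.065.

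Among the alpha subunit genes the median log2 fold change was 0.28 in the double mutant, 0.29 in edc-4 and 0.01 in edc-3, and all were tested without a call. The gene pas-3, whose yeast counterpart carries the tail that closes the gate, had 74.4, 67.2, 97.8 and 87.5 CPM in the double mutant, 62.6, 73.2, 107 and 80.3 CPM in edc-4, 62.3, 69.3, 77.6 and 58.0 CPM in edc-3, and 75.8, 80.4, 50.1 and 58.7 CPM in WT. Its values in the double mutant and WT overlapped, since WT replicate 3 was above double mutant replicates 2 and 3. Its log2 fold change in the double mutant was 0.30 (SE 0.175, 95% interval -0.065 to 0.67, adjusted p = 0.479, edgeR). For pas-4, which lies 122.1 kb from edc-3 on chromosome I, values were 36.4, 33.3, 45.6 and 38.9 CPM in the double mutant, 34.3, 39.0, 47.9 and 36.6 CPM in edc-4, 30.2, 35.8, 34.4 and 27.4 CPM in edc-3, and 36.5, 39.7, 22.1 and 29.3 CPM in WT. The edc-4 and WT libraries of pas-4 overlapped, with a log2 fold change of 0.31 (SE 0.164, 95% interval -0.04 to 0.65, adjusted p = 0.831, edgeR). The gene pas-5, the alpha gene of highest level per length, had 79.9, 71.1, 115 and 82.3 CPM in the double mutant, 61.6, 74.5, 116 and 85.8 CPM in edc-4, 73.8, 87.5, 105 and 73.7 CPM in edc-3, and 79.8, 97.2, 55.1 and 61.5 CPM in WT. In edc-3 it had the smallest unadjusted p of the alpha genes, with a log2 fold change of 0.21 (SE 0.205, 95% interval -0.22 to 0.65), and the value was -0.021 without the libraries numbered 4. The alpha gene of lowest level per length, pas-1, had means of 40.9 ± 4.17 CPM in the double mutant, 41.8 ± 6.63 in edc-4, 33.9 ± 4.21 in edc-3 and 33.6 ± 9.94 in WT (SD, n = 4 each).

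The beta subunit genes had median log2 fold changes of 0.31 in the double mutant, 0.29 in edc-4 and 0.15 in edc-3, again with 0 calls in each. The gene pbs-6 had 48.0, 46.2, 66.3 and 51.7 CPM in the double mutant, 39.8, 47.5, 65.1 and 46.6 CPM in edc-4, 45.2, 48.12, 49.9 and 37.3 CPM in edc-3, and 50.1, 48.7, 26.9 and 36.5 CPM in WT. WT replicates 2 and 3 reached the level of the double mutant, while WT replicate 4 was the lowest of the 16 libraries. The log2 fold change of pbs-6 in the double mutant was 0.39 (SE 0.187, 95% interval -0.006 to 0.78, adjusted p = 0.439, edgeR). The chymotrypsin-like subunit gene pbs-5 had 69.0, 63.4, 82.5 and 73.5 CPM in the double mutant, 64.8, 65.8, 85.6 and 73.6 CPM in edc-4, 66.3, 71.0, 73.3 and 56.6 CPM in edc-3, and 68.9, 69.4, 44.8 and 53.7 CPM in WT. In edc-4 its log2 fold change was 0.29 (SE 0.142, 95% interval -0.009 to 0.59, adjusted p = 0.831, edgeR). The trypsin-like subunit gene pbs-2 had 74.8, 69.9, 82.7 and 71.3 CPM in the double mutant, 60.7, 67.6, 87.0 and 76.9 CPM in edc-4, 69.8, 75.0, 86.5 and 53.9 CPM in edc-3, and 74.7, 71.3, 40.5 and 52.3 CPM in WT. Its log2 fold change in edc-3 was 0.26 (SE 0.176, 95% interval -0.12 to 0.63), with overlap between the groups. The most and least abundant beta genes per length also overlapped between genotypes: pbs-1 averaged 92.0 ± 6.83 CPM in the double mutant, 97.5 ± 11.4 in edc-4, 92.6 ± 16.2 in edc-3 and 81.8 ± 16.0 in WT (SD, n = 4 each). The libraries of pbs-3 ranged over 42.2 to 62.3 CPM in the double mutant, 36.6 to 66.5 in edc-4, 36.3 to 47.4 in edc-3 and 30.1 to 48.9 in WT. The gene pbs-7, which lies 90.0 kb from edc-3, had log2 fold changes of 0.31 in the double mutant, 0.21 in edc-4 and 0.07 in edc-3, and of -0.009, -0.12 and -0.14 without the libraries numbered 4.

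The ATPases of the 19S base pull the substrate into the core, and in yeast the tails of Rpt2 and Rpt5 open its gate. Their genes had median log2 fold changes of 0.25 in the double mutant, 0.21 in edc-4 and 0.10 in edc-3. The gene rpt-2 had 119.3, 119.2, 154 and 128 CPM in the double mutant, 98.6, 121, 149.6 and 117 CPM in edc-4, 98.7, 119.8, 116 and 79.9 CPM in edc-3, and 124, 113, 57.9 and 91.5 CPM in WT. WT replicate 2 exceeded double mutant replicates 2 and 3, and WT replicate 4 lay far below every other library. This gene had the smallest adjusted p of any member in any comparison over all 16 libraries, with a log2 fold change of 0.43 in the double mutant (SE 0.193, 95% interval 0.03 to 0.84, unadjusted p = 0.0383, adjusted p = 0.421, edgeR). Without the libraries numbered 4 its log2 fold change in the double mutant was 0.16. In edc-4 the log2 fold change of rpt-2 was 0.33 (SE 0.193, adjusted p = 0.831, edgeR). An exon of rpt-2 overlaps fos-1 on the other strand, which had 22.9 to 40.4 CPM. The gene rpt-5 had 81.9, 79.2, 94.5 and 88.6 CPM in the double mutant, 69.2, 88.6, 99.7 and 85.0 CPM in edc-4, 77.4, 93.7, 85.8 and 71.3 CPM in edc-3, and 84.0, 87.3, 53.2 and 68.7 CPM in WT. Its log2 fold change in edc-3 was 0.16 (SE 0.146, 95% interval -0.14 to 0.47), the ATPase gene of smallest unadjusted p there. The steadiest member was rpt-6, chosen here after its values were seen. It had 81.7, 80.1, 84.8 and 77.3 CPM in the double mutant, 81.2, 92.7, 99.4 and 88.0 CPM in edc-4, 84.0, 95.4, 86.8 and 79.2 CPM in edc-3, and 89.3, 85.4, 76.5 and 79.3 CPM in WT. The SD of its log2 level over the 16 libraries was 0.11, with a 1.30-fold span between the lowest and highest library, whereas rpn-12 had the largest, 0.36, with a 2.87-fold span. The log2 fold change of rpt-6 was -0.03 in the double mutant, 0.13 in edc-4 and 0.06 in edc-3, and its 95% interval in the double mutant was -0.22 to 0.17.

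Non-ATPase subunits form the scaffold, the ubiquitin receptors and the lid with its deubiquitinase. Their genes had median log2 fold changes of 0.23 in the double mutant, 0.17 in edc-4 and 0.12 in edc-3. The gene rpn-12, which encodes the lid subunit that joins late in yeast, had 60.2, 55.3, 89.8 and 65.4 CPM in the double mutant, 47.1, 56.6, 86.8 and 60.9 CPM in edc-4, 50.1, 63.6, 65.0 and 46.9 CPM in edc-3, and 58.0, 61.5, 31.3 and 48.5 CPM in WT. Replicate 4 was its highest library in each mutant and its lowest in WT. The log2 fold change in the double mutant was 0.44 (SE 0.213, 95% interval -0.005 to 0.89, adjusted p = 0.439, edgeR). The gene rpn-11 encodes the deubiquitinase that takes ubiquitin off the substrate. It had 92.0, 90.1, 104.3 and 94.0 CPM in the double mutant, 79.8, 92.0, 113 and 93.8 CPM in edc-4, 89.1, 107, 97.6 and 67.8 CPM in edc-3, and 92.0, 91.3, 49.9 and 66.7 CPM in WT. Its log2 fold change in edc-4 was 0.34 (SE 0.174, 95% interval -0.03 to 0.70, adjusted p = 0.831, edgeR), and the overlapping antisense gene pqn-48 had 5.69 to 14.5 CPM. The scaffold gene rpn-1 averaged 145 ± 8.15 CPM in the double mutant, 156 ± 11.5 in edc-4, 151 ± 25.6 in edc-3 and 143.5 ± 31.1 in WT, and rpn-2 averaged 224.5 ± 9.01, 218 ± 17.01, 223 ± 31.1 and 202 ± 38.4 CPM in the same order (SD, n = 4 each). The receptor gene rpn-13, listed as C56G2.7, averaged 94.0 ± 7.94 CPM in the double mutant, 93.1 ± 10.3 in edc-4, 90.9 ± 11.4 in edc-3 and 85.6 ± 13.4 in WT (SD, n = 4 each). Its log2 fold changes were 0.13, 0.12 and 0.09 (adjusted p = 0.62, 0.842 and 0.9999, edgeR), which lie within the range of the members.

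Neither RPN-6 paralogue passed the threshold in any comparison. The gene rpn-6.1 had 134, 133, 159 and 132 CPM in the double mutant, 116, 137, 169 and 137 CPM in edc-4, 125, 150.3, 150.4 and 115 CPM in edc-3, and 139, 137, 96.4 and 126 CPM in WT. Its log2 fold change was 0.16 in the double mutant, 0.17 in edc-4 and 0.12 in edc-3 (SE 0.136 each), but -0.01, -0.03 and -0.04 in the same order without the libraries numbered 4. The gene rpn-6.2 had 1.41, 1.10, 0.636 and 1.05 CPM in the double mutant, 0.858, 1.24, 0.989 and 1.14 CPM in edc-4, 0.963, 0.980, 0.906 and 0.646 CPM in edc-3, and 1.64, 1.05, 1.09 and 1.13 CPM in WT. It was the only member whose libraries did not overlap in a comparison, with every edc-3 library below every WT library, as for 0.977% of all genes. Its log2 fold change in edc-3 was -0.49 (SE 0.246, 95% interval -1.01 to 0.02, unadjusted p = 0.0601, adjusted p = 0.9999, edgeR), and it was -0.22 in the double mutant and -0.21 in edc-4. In no mutant did all libraries of a member lie above all WT libraries, as 3.48% of all genes did in the double mutant, 1.05% in edc-4 and 0.936% in edc-3. Nor did all libraries of a member lie below WT in the double mutant, as for 3.95% of all genes, or in edc-4, as for 1.25%.

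The comparisons among mutants also called none of the members. Between the double mutant and edc-3, 0 of 32 members were called (0.0355% of all genes) and 0 had an unadjusted p under 0.05 (5.01% of all genes). Their median log2 was 0.15 with 29 of 32 above 0, where 49.1% of all genes were above 0. It was 0.12 with 29 of 32 above 0 without the libraries numbered 4, but 0.015 with 17 of 32 above 0 with the embryo-age covariate. Between the double mutant and edc-4, 0 of 32 were called (0.0296% of all genes) and 0 had an unadjusted p under 0.05 (2.81% of all genes). Here the median was 0.02 with 20 of 32 above 0, where 47.5% of all genes were above 0. Its sign depended on the setting, with 0.06 and 23 of 32 above 0 without the libraries numbered 4 and -0.05 and 8 of 32 above 0 with the covariate. The smallest unadjusted p of a member was 0.104 (rpt-2, log2 0.33, 95% interval -0.07 to 0.73) against edc-3 and 0.105 (rpt-6, log2 -0.16, 95% interval -0.35 to 0.04) against edc-4 (edgeR's quasi-likelihood test). With the embryo-age covariate, rpt-6 had an unadjusted p under 0.05 in both comparisons (edgeR), as did 9.31% of all genes against edc-3 and 8.28% against edc-4. Without the libraries numbered 4, rpt-2 did against edc-3 (edgeR), as did 5.93% of all genes. DESeq2 called 0 in both (0.136% of all genes against edc-3 and 0.0711% against edc-4). In neither comparison did the libraries of a member separate, upward (2.52% of all genes against edc-3 and 1.27% against edc-4) or downward (1.87% and 0.835%).

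The interaction of the alleles, which asks whether the double mutant departs from the sum of both single effects, gave 0 calls among the members by edgeR (0.0355% of all genes) and by DESeq2 (0.101%). No member had an unadjusted p under 0.05, as 1.62% of all genes did, and the smallest was 0.108 (rpt-6, edgeR). With the embryo-age covariate 1 member, rpt-6, had an unadjusted p under 0.05, as did 4.66% of all genes (edgeR). The median log2 over the members was -0.085 with 7 of 32 above 0, where 45.5% of all genes were above 0. Without the libraries numbered 4 the median was 0.14 with 28 of 32 above 0, and with the covariate it was -0.066 with 9 of 32 above 0.

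**Figure D4:**
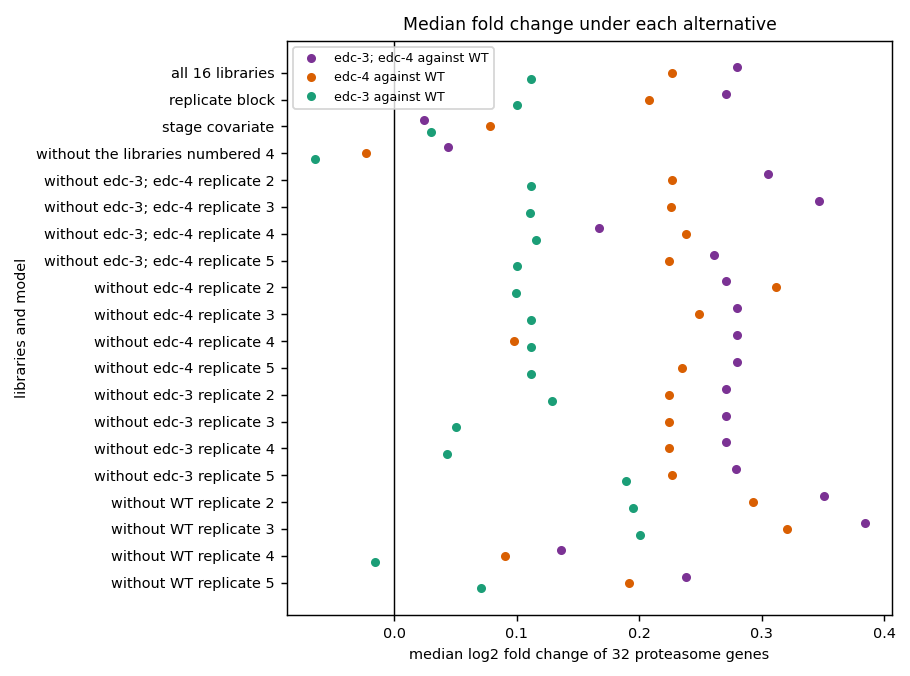
Median log2 fold change of the 32 subunit genes in the double mutant, edc-4 and edc-3 against WT with all libraries, with the replicate block, with the embryo-age covariate, without the libraries numbered 4 and without each single library. The medians are 0.02, 0.08 and 0.03 with the covariate and 0.04, -0.02 and -0.065 without the libraries numbered 4, and single libraries move the double mutant between 0.14 and 0.38.

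The library pattern of the members ran with the embryo-age markers. The median deviation of the members from their 16-library means was 0.03, -0.05, 0.39 and 0.13 on the log2 scale in the double mutant, -0.21, 0.02, 0.41 and 0.07 in edc-4, -0.10, 0.12, 0.13 and -0.27 in edc-3, and 0.08, 0.11, -0.59 and -0.24 in WT, for replicates 2 to 5. Early zygotic markers (30 of 30 tested, none at 0) summed to 1388 to 2200 CPM in the double mutant, 1211 to 2259 in edc-4, 1372 to 1798 in edc-3 and 1083 to 1586 in WT. Muscle markers (31 of 31 tested, none at 0) summed to 5413 to 10110 CPM in the double mutant, 5553 to 11790 in edc-4, 7693 to 10190 in edc-3 and 8274 to 10270 in WT. In the libraries numbered 4 the muscle sums were 5413, 5553, 7693 and 10210 CPM in the double mutant, edc-4, edc-3 and WT. Replicate 4 of the double mutant and of edc-4 thus had the most early zygotic, the least muscle and the most proteasome transcript of the 16 libraries. The 25 maternal mRNAs (all tested, none at 0), which are loaded into the oocyte, also varied. They summed to 2515 to 2818 CPM in the double mutant, 1802 to 2539 in edc-4, 1675 to 3152 in edc-3 and 929.5 to 2540 in WT. In the libraries numbered 4 the maternal sum was the lowest of its genotype in the double mutant (2515 CPM) and in WT (929.5 CPM) and the highest in edc-4 (2539 CPM). Against WT, 3 of the 25 maternal genes were called higher in the double mutant, 0 in edc-4 and 3 in edc-3 (edgeR). Of all genes, 0.207%, 0.142% and 0.142% were called in the same order. The double mutant and edc-3 comparisons each called egg-1, egg-2 and chs-1. This list was chosen with earlier results of these data known. The median log2 fold changes of the maternal genes were 0.38, 0.20 and 0.23 in the double mutant, edc-4 and edc-3. Without the libraries numbered 4 these medians were 0.185, -0.09 and -0.01, and with the covariate 0.24, 0.09 and 0.15. The part of embryo age or of maternal mRNA in the values of the proteasome genes was not tested beyond these settings. With early zygotic and muscle markers as a covariate the medians of the members against WT were 0.02, 0.08 and 0.03, as given above.

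**Figure D5:**
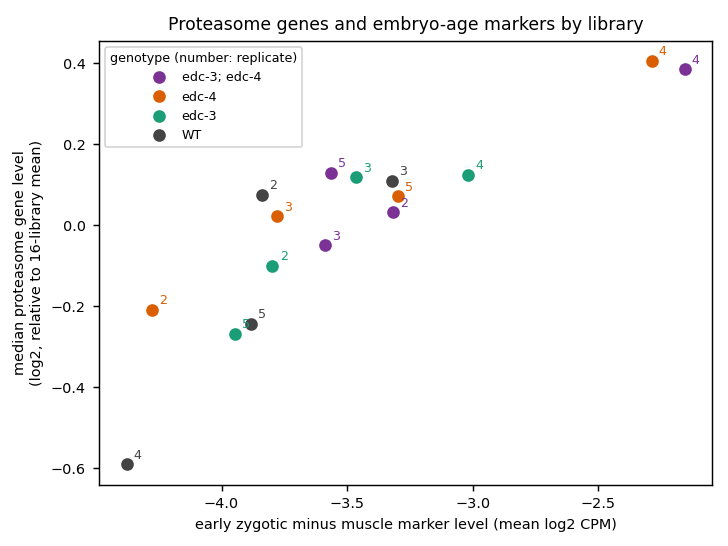
Median log2 level of the subunit genes in each library, relative to their 16-library means (vertical axis), against the mean log2 CPM of early zygotic minus muscle markers (horizontal axis), coloured by genotype and numbered by replicate. Replicate 4 of the double mutant and of edc-4 lie at the upper right, at 0.39 and 0.41, and WT replicate 4 at the lower left, at -0.59.

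The genes most like the members were sought among 9582 others with at least 5 CPM on average, by Pearson r of log2 CPM with the mean of the standardised members over the 16 libraries. The highest were ubxn-6 (0.989), cyb-2.2, a B-type cyclin (0.988), marc-3 (0.988), T05B9.1 (0.988) and nemp-1 (0.986). The gene ubxn-6, which encodes a UBX-domain adaptor of the CDC-48 segregase, ranged over 61.4 to 77.6 CPM in the double mutant, 51.7 to 81.0 in edc-4, 48.12 to 70.6 in edc-3 and 36.2 to 67.6 in WT. Its highest library was edc-4 replicate 4 and its lowest WT replicate 4, as for most members. Since it was chosen by r over these libraries, this is no separate observation. An r above 0.9 was found for 826 of the 9582 genes (8.62%), so the pattern was shared by many transcripts.

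Other genes of the ubiquitin system gave no calls. A list of proteasome-associated genes, such as the deubiquitinase gene usp-14, had median log2 fold changes of 0.12 in the double mutant, 0.16 in edc-4 and 0.10 in edc-3. Of its 15 genes, 11, 11 and 13 were above 0 and 0 were called. The SKN-1A pathway, which includes skn-1 itself, the peptide:N-glycanase gene png-1 and the protease gene ddi-1 that activate it, had medians of 0.20, 0.11 and 0.12, with 9, 9 and 10 of 10 above 0 and 0 called. The gene png-1 had 27.3 ± 1.08 CPM in the double mutant, 28.4 ± 2.47 in edc-4, 30.3 ± 0.912 in edc-3 and 28.7 ± 2.17 in WT, and ddi-1 had 110.3 ± 25.3, 105 ± 30.3, 98.2 ± 12.8 and 90.3 ± 13.6 CPM in the same order (SD, n = 4 each). Ubiquitin activation and conjugation genes (28 of 29 tested) had medians of 0.10, 0.11 and 0.06, and cullin-RING ligase core genes (19 of 19 tested) 0.18, 0.14 and 0.06, with 0 called in either list. Without the libraries numbered 4 the medians of these 4 lists against WT lay between -0.042 and 0.076.

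The lid of the 19S particle is related in architecture to the COP9 signalosome and to translation initiation factor eIF3, so these complexes were set beside it. The 6 COP9 signalosome genes had median log2 fold changes of 0.10, 0.11 and 0.04 in the double mutant, edc-4 and edc-3, with 0 called. All 3 signs turned, to -0.069, -0.067 and -0.075 without the libraries numbered 4 and to -0.146, -0.043 and -0.061 with the embryo-age covariate. The 11 eIF3 genes had medians of 0.18, 0.16 and 0.07. These were 0.086, 0.083 and -0.034 without the libraries numbered 4 and 0.095, 0.107 and -0.009 with the covariate. Of the 11 genes, 11, 11 and 8 were above 0 in the double mutant, edc-4 and edc-3. Only 1, eif-3.I, was called, and it was called higher in each mutant. Of all genes, 0.207%, 0.142% and 0.142% were called in the same order. The gene eif-3.I averaged 379 ± 35.8 CPM in the double mutant, 399.9 ± 33.1 in edc-4 and 373 ± 30.3 in edc-3, against 200.0 ± 48.9 in WT (SD, n = 4 each). Its log2 fold changes were 0.92, 1.0 and 0.90 (adjusted p = 0.0076, 0.00485 and 0.0124, edgeR). All its libraries lay above WT in each mutant, as for 3.48%, 1.05% and 0.936% of all genes in the same order. The gene eif-3.I lies on chromosome I (2485861 to 2489787), as do edc-4 (3340212 to 3349914) and edc-3 (8602125 to 8605162). The call of eif-3.I in edc-3 was lost without edc-3 replicate 2 (adjusted p = 0.0576, edgeR) or replicate 3 (adjusted p = 0.0709, edgeR). When only the groups compared were fitted, its adjusted p was 0.0513, 0.0778 and 0.0979 in the double mutant, edc-4 and edc-3 (edgeR). The 8 genes of the CCT chaperonin had medians of 0.09, 0.08 and 0.10, which were 0.11, 0.08 and 0.08 without the libraries numbered 4. Cytosolic ribosomal protein genes (81 of 82 tested) had medians of -0.20, -0.05 and -0.04, with 0 called. Their signs depended on the setting, with medians of -0.07, 0.14 and 0.04 without the libraries numbered 4 and of 0.002, 0.08 and 0.06 with the embryo-age covariate.

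Of the members, 10 overlap an exon of another gene on the other strand and 1, pbs-7, on the same strand, and the strand setting of the counting is not given in the sources used here. The largest such neighbours relative to the member were lact-2, with up to 76.3% of the CPM of pas-7 in a library, fos-1, with up to 69.9% of rpt-2, and rpoa-49, with up to 68.8% of rpt-4. For the other 8 the share was at most 34.2%. Values of pas-7, rpt-2 and rpt-4 are therefore the least certain in this respect.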

How the data were processed

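Total RNA libraries (TruSeq stranded, per the labels' protocols) were grouped by the genotype in their labels. The authors deposited raw counts per gene, made with Trimmomatic, STAR and HTSeq on WBcel235, per the submitters' processing notes, which also name edgeR and limma; no version or HTSeq strand option is stated there. The series text names strain FD135 for the double mutant as well, while the sample labels name FD146, which was followed. Replicates are independent biological samples, per the labels.

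From these counts, genes were filtered (filterByExpr, minimum count 10, minimum total 15), scaled with TMM and fitted in 1 quasi-likelihood model of all 16 libraries with a mean per genotype (edgeR 4.0.16, R 4.3.3), which left 16880 genes and a common biological coefficient of variation of 0.193. P-values were adjusted by Benjamini-Hochberg over all genes. Intervals are 95% intervals of the fitted log2 fold change. Log2 CPM used a prior count of 2, and TPM used merged exon lengths of Ensembl's WBcel235 annotation. Counting error at 34.1 to 52.9 M counts is small for members other than rpn-6.2. No libraries of the same genotype were identical (chi-square per degree of freedom at least 9.997 between replicates). Same-numbered replicates did not deviate together in all pairs (r -0.493 to 0.656), so the number was not used as a pairing. The replicates numbered 4 of the mutants did deviate together (r 0.467, 0.521 and 0.656). Replicate 4 of WT deviated in the opposite direction (r -0.354 with edc-3, -0.493 with edc-4 and -0.331 with the double mutant). The scripts were tested on simulated data. Alternatives were DESeq2 1.42.0, other scaling, no filter, the groups compared alone, a replicate block, an embryo-age covariate, no libraries numbered 4 and leaving out each library.

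Members, gene lists, tests and alternatives were chosen with earlier results of these data known. Members given with full values were those of smallest unadjusted p per subunit group and mutant, those of highest and lowest TPM per group and both RPN-6 paralogues. Each other list could add 2 genes per direction if they passed the threshold; the 5 most similar genes were taken by r. The members rpt-6, rpn-1, rpn-2 and pbs-7, the gene rpn-13 and list members without a call were named after their values were seen.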

Additional observations from a re-analysis of the deposited data

Results flagged for a closer look

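In 5 of 128 sets of 4 libraries (32 genes in 4 genotypes) a single library lay far from the other 3. Chance alone gives about 1 in 20 for separate sets. These sets share 16 libraries in which the members moved together, so the 5 cannot be read against that rate. Values are the gap to the nearest library as a share of the range of the 4. In the double mutant these were pas-6 (0.872), the ubiquitin receptor gene rpn-10 (0.903) and rpn-6.1 (0.934), each with replicate 4 as the high library. In WT they were rpn-6.2 (0.865), with replicate 2 as the high library, and the lid gene rpn-8 (0.84), with replicate 4 as the low one. The genes pas-6, rpn-10 and rpn-6.1 had 55.3, 91.9 and 159 CPM in double mutant replicate 4, and rpn-8 had 70.0 CPM in WT replicate 4.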

How the results depend on the processing

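No member was called under any alternative, and each of the 6 comparisons kept 0 calls among the 32 genes. The median log2 fold change moved by more than the spread between replicates (0.246) in edc-4 without the libraries numbered 4 (-0.023) and in the double mutant with the embryo-age covariate (0.024); the cause was not tested. Without the libraries numbered 4 the fold changes against WT of 6 members in the double mutant, 19 in edc-4 and 23 in edc-3 turned negative. Of the single fold changes recomputed under every setting, the sign reversed for pas-5 (-0.021) and rpn-6.1 (-0.043) in edc-3, and for rpn-6.1 in edc-4 (-0.031) and the double mutant (-0.011), where the covariate gave -0.025. Leaving out single libraries gave medians of 0.136 to 0.384 in the double mutant, 0.09 to 0.321 in edc-4 and -0.016 to 0.201 in edc-3, the lowest each time without WT replicate 4; between the double mutant and edc-3 they were 0.046 to 0.235, between the double mutant and edc-4 -0.083 to 0.134, and for the interaction -0.196 to 0.056. With the replicate number as a block, the medians were 0.27 in the double mutant, 0.21 in edc-4 and 0.10 in edc-3, the genes called were 36, 25 and 26, and no member was called. Over all genes, the number called in the double mutant was 65 without a filter, 106 with the covariate and 110 by DESeq2, and 17 to 40 when single libraries were left out. In edc-4 it was 48 with the covariate, 7 with the groups compared alone, 42 by DESeq2 and 15 to 27. In edc-3 it was 40 without a filter, 41 with the covariate, 14 with the groups alone, 39 by DESeq2 and 14 to 26. Between the double mutant and edc-3 it was 43 with the covariate, 23 by DESeq2 and 4 to 6, and between the double mutant and edc-4 12 without a filter, 8 with the covariate, 12 by DESeq2 and 2 to 7. For the interaction it was 10 without a filter, 17 with the covariate, 17 by DESeq2 and 5 to 7. With 4 libraries a genotype, standard errors of the members were 0.092 to 0.246 on the log2 scale against WT, which limits what can be told from 0; the counts of rpn-6.2 limit its value in particular.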
